A study of Mus musculus with 6 samples.

Results

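Cholesterol and fatty acid synthesis genes were followed in MC3T3-E1, an established line of mouse calvarial pre-osteoblasts, at 2 days in osteoconductive (OC) medium, which holds β-glycerophosphate and ascorbic acid. The PAKG group received 30 μg/mL of PAKG–8diol–PEG(S) MPs, small microparticles of an α-ketoglutarate polymer made with an octanediol and poly(ethylene glycol), and the OC group received no MPs in the same medium. Poly(A) RNA was sequenced from 3 samples per group. The labels do not say how these samples relate to separate cultures, so p-values measure only the spread between them, which may be technical. The members are 32 of 26187 genes in the deposited tables, named from knowledge of the pathway but with earlier results of these data known. They are 18 enzymes of the mevalonate and sterol route, 6 enzymes of fatty acid and lipid synthesis, 5 regulators of SREBP and 3 genes of sterol transport. All 32 were found by symbol, and 31 had a mean of at least 0.5 FPKM (fragments scaled by transcript length and library depth) over the 6 libraries and were tested. Abca1 was below this filter.

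SREBP2, encoded by Srebf2, and SREBP1, encoded by Srebf1, are membrane-bound transcription factors of the endoplasmic reticulum. When sterol is low, Scap escorts them to the Golgi, where proteases free the active part, which enters the nucleus and switches on enzymes of sterol and fatty acid synthesis. When sterol is high, the Insig proteins hold Scap back, and oxysterols activate the nuclear receptor LXR, which switches on sterol export and Mylip. SREBP2 is known mainly for the sterol route and SREBP1 for the fatty acid route, although their targets overlap.

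Of 31 members tested, the sterol enzymes Idi1, Lss and Cyp51 and the fatty acid enzyme Elovl6 fell in PAKG against OC, and Mylip of the transport genes rose. These were 3 of 18 sterol enzymes and 1 of 6 fatty acid enzymes, 16.7% of either branch, and the other 26 members tested did not pass the test. The percent change in mean FPKM was -16.2 for Cyp51 and -24.8 for Lss, with the other 2 between, and Mylip was 48.2% above its OC mean. No member reached a fold change of 2. The test was limma on log2(FPKM + 0.1), 2-sided, with Benjamini-Hochberg adjustment over the 12590 genes that passed the filter. A gene is called at an adjusted p under 0.05, and fold changes below are on that log2 scale, PAKG against OC. The 5 members called make 16.1% of those tested, a share near the 14.7% called among all genes. By direction, 12.9% of members were called lower, against 8.73% of all genes, and 3.23% higher, against 5.97%. When a fold change of at least 2 was also asked, limma called 1.45% of all genes and 0 of the members. Before adjustment, 14 members were lower and 2 higher at limma p under 0.05. The share of all genes at that unadjusted p was not computed, so these counts cannot be read as an excess or as the lack of one.

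The replicate number accounted for part of the spread. Same-numbered samples of the groups deviated together, and with that number in the model as a block 14 members were called lower and 2 higher, 45.2% and 6.45% of those tested, against 17.1% and 12.3% of all genes. In 13 members (41.9%) the highest PAKG value was below the lowest OC value, against 19.6% of all genes, and in 1 member the groups were apart the other way (3.23%, against 13.7%). The median log2 fold change was -0.16 over the 31 members, -0.21 over the 18 sterol enzymes, -0.06 over the 6 fatty acid enzymes and -0.03 over all genes tested. The difference between the branches was not tested as such. Rescaling each library to a common total moved the sterol median to -0.16 and the median of all genes to 0.01, and turned the balance of all calls from 59.4% lower to 46.6% lower, while 14 of 18 sterol enzymes kept a negative value.

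**Figure D1:**
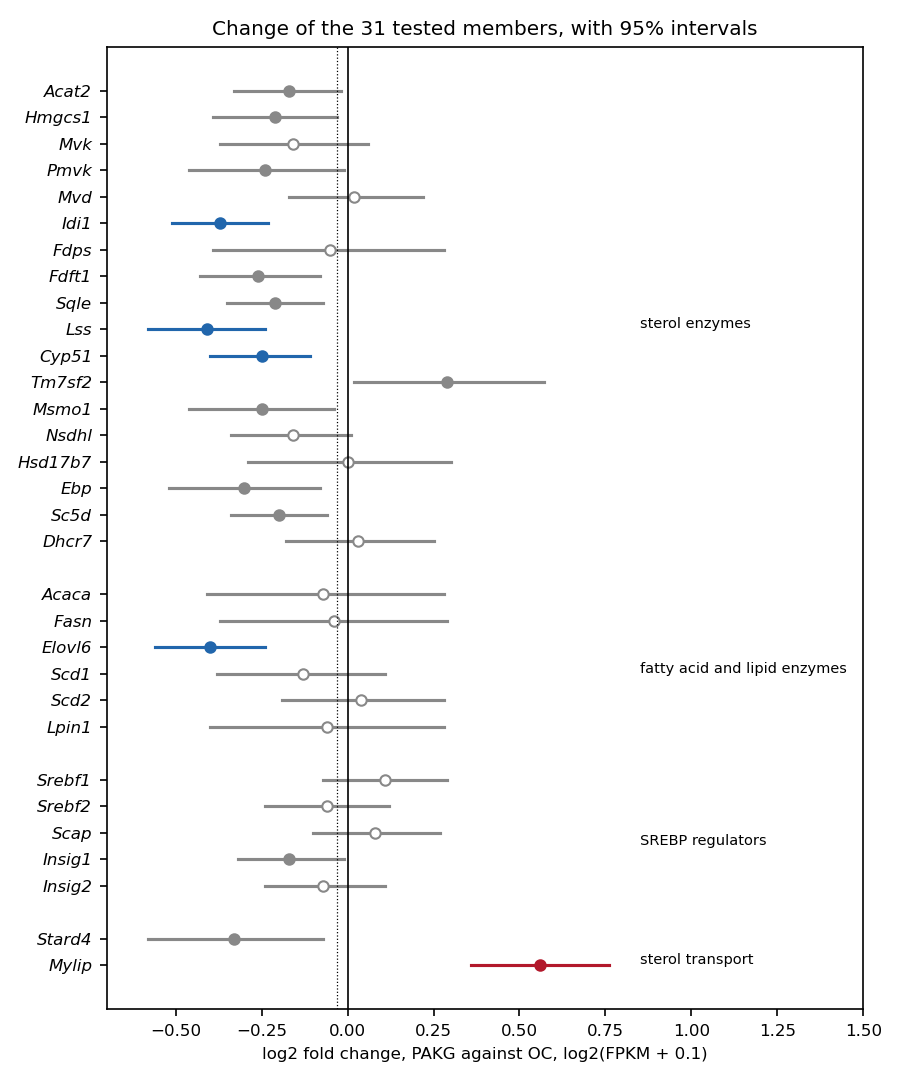
Log2 fold change of each tested member, PAKG against OC, on the log2(FPKM + 0.1) scale, with limma's 95% interval. Blue and red mark members called lower and higher without the block, grey marks the others, filled points were called with the replicate block, and the dotted line is the median of all genes (-0.03). Idi1, Lss, Cyp51 and Elovl6 lie to the left with Lss at -0.41, and Mylip lies to the right at 0.56.

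In the 6 libraries the sums of FPKM over all genes ran from 289675.9 to 325818.2. Low values of short genes place the depth at an estimated 32500000 to 42700000 fragments per library. Of 10 osteoblast markers listed, 6 were called higher in PAKG and 1 (Spp1) lower, and their summed level was 7327 to 8068 FPKM in PAKG against 5279 to 6316 FPKM in OC. Runx2 and Sp7 were at 14.55 FPKM or more in every library, while Bglap was at 0.67 to 1.02 FPKM in OC and 17.47 to 20.33 FPKM in PAKG. Of 7 adipocyte markers, which summed to 2.77 to 3.44 FPKM in PAKG and 1.49 to 3.71 FPKM in OC, Cebpa alone was tested and was called higher (2.70 to 3.37 FPKM in PAKG, 1.43 to 2.21 FPKM in OC). The other 6 reached at most 0.06 FPKM in 5 libraries, and Adipoq, Fabp4, Plin1, Cidec and Lep lay at 0.06 to 0.58 FPKM in OC replicate 3. In that library Fasn was at 35.74 FPKM, the lowest of the OC group. The 6 fatty acid enzymes together summed there to 479.1 FPKM, between OC replicates 1 (477.5 FPKM) and 2 (545.4 FPKM). Of 6 macrophage markers listed, 5 were found, with sums of 19.9 to 22.1 FPKM in PAKG and 13.1 to 17.4 FPKM in OC. Lyz2 was called higher (15.22 to 16.95 FPKM in PAKG, 8.51 to 11.46 FPKM in OC), Cd14 and Cd68 were not called, Csf1r was at 0.22 to 0.29 FPKM in PAKG and 0.06 to 0.12 FPKM in OC, below the filter, and Ptprc reached at most 0.01 FPKM. Pecam1 and Cdh5 of endothelial cells reached at most 0.03 FPKM. The 10 proliferation genes listed were all called lower, with a median log2 fold change of -0.71 and a summed level of 322 to 337 FPKM in PAKG against 522 to 525 FPKM in OC. The part of these marker shifts in the values of the members was not tested. In bulk RNA, fewer cells of a kind and less RNA per cell cannot be told apart.

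Promoter sequences were available for 26 members from RefSeq (GRCm38.p6), of which 15 were sterol enzymes, 4 fatty acid enzymes, 5 regulators and 2 transport genes. Both strands of the 250 bases before each start site were searched. The letters TCACNCCAC, an SREBP site, occurred in 1 member, Hmgcs1, and in 1.22% of all genes with a promoter. Their shorter core CACNCCAC, which is contained in the former, was present in Acat2, Hmgcs1 and Insig1 and in 6.05% of all genes. The E-box CACGTG was present in 6 members, among them Insig1, Hsd17b7 and Sc5d, and in 6.86% of all genes. CCAAT, the box read by NF-Y, a factor known to bind beside SREBP, was present in 14 of 15 sterol enzymes and 4 of 5 regulators but in 1 of 4 fatty acid enzymes (Fasn), against 37.5% of all genes and 39.5% of protein-coding genes. The GC box GGGCGG was present in 14 of 15 sterol enzymes and 0 of 4 fatty acid enzymes, against 35.4% of all genes and 45.8% of protein-coding genes. No member had the 4-spaced AGGTCA repeat of LXR, which 0.0148% of all genes had. A match is a description of the letters and not a bound site, and the absence of a match says nothing of the factor.

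The 150 bases before the RefSeq start site are shown for the members called and for Hmgcs1, the member with the SREBP site, to set their motifs side by side. Sequences run 5′ to 3′ along the gene on GRCm38.p6, and capitals mark CCAAT, its complement ATTGG and the SREBP site.
Hmgcs1 (chr13:119690201-119690350, plus strand): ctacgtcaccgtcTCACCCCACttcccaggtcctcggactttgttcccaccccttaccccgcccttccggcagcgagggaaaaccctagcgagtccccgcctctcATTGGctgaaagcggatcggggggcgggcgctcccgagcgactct
Idi1 (chr13:8885456-8885605, plus strand): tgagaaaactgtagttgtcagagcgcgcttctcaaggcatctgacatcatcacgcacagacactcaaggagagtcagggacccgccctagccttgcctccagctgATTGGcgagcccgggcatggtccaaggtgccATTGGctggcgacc
Lss (chr10:76531455-76531604, plus strand): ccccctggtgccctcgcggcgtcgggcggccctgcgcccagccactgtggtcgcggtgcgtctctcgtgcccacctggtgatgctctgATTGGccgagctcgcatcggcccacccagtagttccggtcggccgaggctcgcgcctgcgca
Cyp51 (chr5:4104698-4104847, minus strand): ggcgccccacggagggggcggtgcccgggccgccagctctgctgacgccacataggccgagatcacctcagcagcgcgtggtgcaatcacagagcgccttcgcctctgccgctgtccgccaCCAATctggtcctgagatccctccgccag
Elovl6 (chr3:129532236-129532385, plus strand): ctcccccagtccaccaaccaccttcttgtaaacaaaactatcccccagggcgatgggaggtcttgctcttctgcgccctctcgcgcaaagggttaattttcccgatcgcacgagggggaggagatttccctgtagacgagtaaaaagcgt
Mylip (chr13:45389592-45389741, plus strand): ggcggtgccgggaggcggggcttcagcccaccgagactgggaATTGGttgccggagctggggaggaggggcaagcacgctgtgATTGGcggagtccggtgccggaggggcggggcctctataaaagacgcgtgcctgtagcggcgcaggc
The 3 sterol enzymes called lower and Hmgcs1 each held the NF-Y box in this window, and Elovl6 held none of the marked motifs. Idi1 held the box at 2 places, as did Mylip, the member that rose. GENCODE starts Idi1 at 8885501, against 8885606 in RefSeq, and Cyp51 at 4104746, against 4104697 (minus strand). The boxes shown for these 2 genes thus lie inside the GENCODE gene.

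The first steps join acetyl units into mevalonate and its phosphates, and here no enzyme passed the unblocked test, although 3 were lower with the block. Acat2, the cytosolic acetoacetyl-CoA thiolase, was at 94.79, 88.85 and 91.97 FPKM in PAKG replicates 1 to 3 and at 108.76, 99.63 and 102.71 FPKM in OC. Hmgcs1, the HMG-CoA synthase, was at 138.61, 152.51 and 139.37 FPKM in PAKG and at 159.49, 177.93 and 161.68 FPKM in OC. In both genes all PAKG libraries lay below all OC libraries. The log2 fold changes were -0.17 for Acat2 (SE 0.07, limma adjusted p = 0.137, and 0.0288 with the block) and -0.21 for Hmgcs1 (SE 0.08, adjusted p = 0.117, and 0.0163 with the block). Of 75-base windows of the Acat2 transcript, 40.7% also occur in Acat3, so how reads were shared out between this pair is uncertain. Pmvk, which adds a phosphate to phosphomevalonate, was at 25.02 to 28.76 FPKM in PAKG and 28.17 to 34.37 FPKM in OC, ranges that overlap (log2 fold change -0.24, adjusted p = 0.149, and 0.016 with the block). Mvk, the mevalonate kinase before it, had a log2 fold change of -0.16 (95% interval -0.37 to 0.06), and Mvd, the decarboxylase after it, 0.02 (95% interval -0.17 to 0.22). Neither was called with or without the block.

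At the isoprenoid steps, Idi1 fell. Idi1, the isomerase that makes the activated isoprene unit (ENSMUSG00000058258, chromosome 13, 8885501 to 8892451 on GRCm38), was at 56.67, 55.43 and 54.10 FPKM in PAKG and at 69.86, 72.62 and 72.25 FPKM in OC. The groups were well separated, with means of 55.4 ± 1.29 and 71.6 ± 1.5 FPKM (SD, n = 3; log2 fold change -0.37 ± 0.06 SE, limma adjusted p = 0.00759). With PAKG replicate 3 left out the gene was not called (limma adjusted p = 0.059). Of its transcript windows, 20.7% also occur in pseudogene-like entries (Gm13502, Gm35570, Gm7654 and Gm8911). Fdps, the farnesyl diphosphate synthase, was at 138.40, 99.31 and 129.89 FPKM in PAKG and at 141.09, 109.96 and 128.64 FPKM in OC, so replicate 2 was the lowest of both groups and the groups overlapped (log2 fold change -0.05, 95% interval -0.39 to 0.28). For Fdps 80.4% of windows occur in other entries, and its level is uncertain.

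From squalene to lanosterol, Lss and Cyp51 fell and the neighbouring enzymes lay below OC in every library. Fdft1, the squalene synthase, was at 56.49, 54.60 and 56.41 FPKM in PAKG and at 70.86, 61.38 and 68.16 FPKM in OC (log2 fold change -0.26, limma adjusted p = 0.0591, and 0.0153 with the block). Sqle, the squalene epoxidase, was at 65.93, 68.25 and 66.76 FPKM in PAKG and at 78.39, 77.68 and 76.45 FPKM in OC (log2 fold change -0.21, adjusted p = 0.0554, and 0.0173 with the block). Both showed no overlap of the groups. Lss, the lanosterol synthase that closes the sterol rings (ENSMUSG00000033105, chromosome 10, 76531588 to 76557138), was at 12.37, 13.25 and 12.13 FPKM in PAKG and at 17.14, 17.23 and 15.86 FPKM in OC. Its percent change in mean FPKM, -24.8, was the largest fall among the 18 sterol enzymes (means 12.6 ± 0.590 and 16.7 ± 0.766 FPKM, SD, n = 3; log2 fold change -0.41 ± 0.07 SE, adjusted p = 0.00941), and it was not called with PAKG replicate 3 left out (adjusted p = 0.0598). Cyp51, the demethylase that acts on lanosterol (ENSMUSG00000001467, chromosome 5, 4081145 to 4104746), was at 127.17, 119.23 and 124.91 FPKM in PAKG and at 148.87, 145.53 and 148.60 FPKM in OC. Its means were 124 ± 4.09 and 148 ± 1.86 FPKM (SD, n = 3; log2 fold change -0.25 ± 0.06 SE, adjusted p = 0.0372). The Cyp51 call was close to the threshold and was lost when any 1 library was left out (adjusted p = 0.0525 without PAKG replicate 2 to 0.152 without PAKG replicate 3). Cyp51 overlaps Akap9 and Fdft1 overlaps Ctsb on the other strand. The library kit keeps strand, but whether the counting used it is not given in the sources used here.

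**Figure D2:**
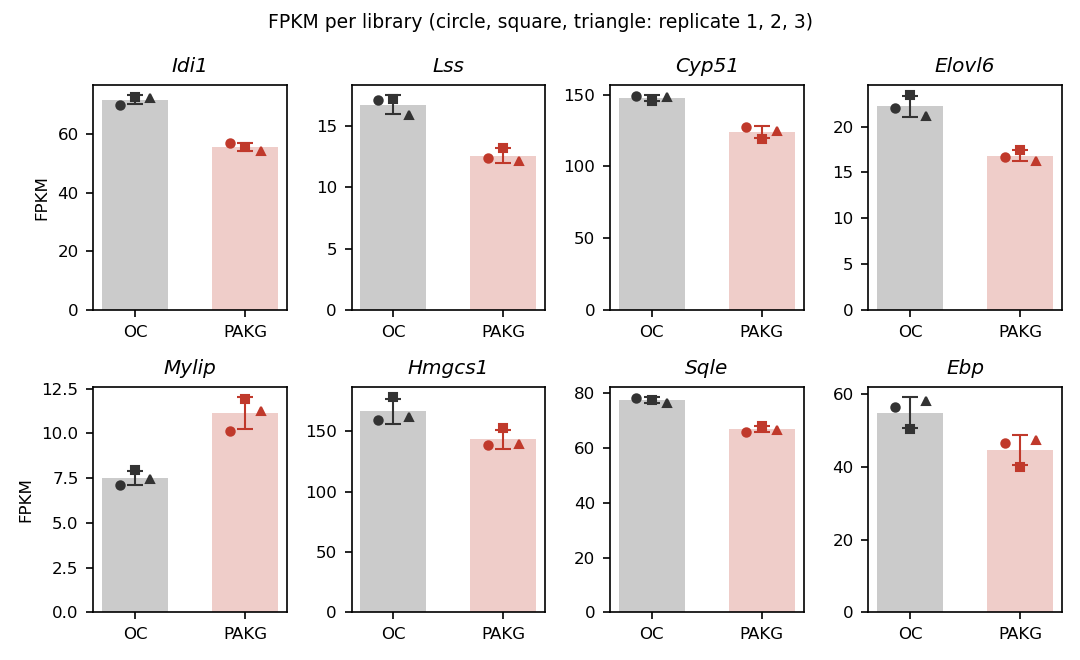
FPKM per library of the 5 members called and of 3 sterol enzymes called with the replicate block but not in the main fit (Hmgcs1, Sqle, Ebp). Bars are means of 3 libraries, error bars are SD, and circles, squares and triangles are replicates 1, 2 and 3, all from axes that start at 0. In each panel the PAKG points lie on one side of the OC points.

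After lanosterol the members differed among themselves. Ebp, the sterol isomerase, was at 46.56, 39.86 and 47.31 FPKM in PAKG and at 56.28, 50.20 and 58.08 FPKM in OC (log2 fold change -0.30, limma adjusted p = 0.0743, and 0.00567 with the block). Msmo1, which removes methyl groups from the ring, had 38.62 to 45.84 FPKM in PAKG and 48.92 to 54.25 FPKM in OC (log2 fold change -0.25, adjusted p = 0.109, and 0.0185 with the block). Sc5d, the sterol desaturase, had 35.61 to 36.75 FPKM in PAKG and 40.85 to 42.48 FPKM in OC (log2 fold change -0.20, adjusted p = 0.0617, and 0.0226 with the block). In these 3 genes the groups did not overlap. Nsdhl, a dehydrogenase of the same demethylation, had a log2 fold change of -0.16 (95% interval -0.34 to 0.01), with overlapping groups. Tm7sf2, a sterol reductase, went the other way: it was at 6.21, 5.45 and 6.91 FPKM in PAKG and at 5.47, 4.42 and 5.21 FPKM in OC, groups that just overlap (log2 fold change 0.29, adjusted p = 0.15, and 0.0236 with the block). Tm7sf2 overlaps Vps51 on the same strand, and its level is uncertain. Hsd17b7, a ketosteroid reductase, and Dhcr7, the reductase that ends one arm of the route, had log2 fold changes of 0.00 and 0.03 with 95% intervals of -0.29 to 0.30 and -0.18 to 0.25.

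Taken by library, the 18 sterol enzymes summed to 1030.6, 972.0 and 1018.4 FPKM in PAKG and to 1176.0, 1113.9 and 1152.5 FPKM in OC. Every PAKG sum was below every OC sum. Of the 18, 3 were called lower (16.7%, against 8.73% of all genes) and 0 higher. Before adjustment limma gave 11 lower and 1 higher at p under 0.05, with no share of all genes computed for comparison. In the fit with the block, 11 were called lower (61.1%, against 17.1% of all genes) and 1 higher. Without PAKG replicate 3 none was called, while 3.97% of all genes were called lower. With replicate 2 of both groups left out 9 were called lower, as were 12.3% of all genes.

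The fatty acid branch showed one fall among values that overlapped. Elovl6, the elongase that takes palmitate to stearate (ENSMUSG00000041220, chromosome 3, 129532355 to 129638495), was at 16.71, 17.45 and 16.26 FPKM in PAKG and at 22.07, 23.41 and 21.13 FPKM in OC. The groups were separate (means 16.8 ± 0.601 and 22.2 ± 1.15 FPKM, SD, n = 3; log2 fold change -0.40 ± 0.07 SE, limma adjusted p = 0.00941), and it was not called with PAKG replicate 3 left out (adjusted p = 0.0604). Fasn, the fatty acid synthase, was at 35.00, 46.91 and 37.53 FPKM in PAKG and at 39.16, 47.97 and 35.74 FPKM in OC, with replicate 2 the highest of each group. Its log2 fold change was -0.04 (95% interval -0.37 to 0.29). Acaca, the acetyl-CoA carboxylase that commits acetyl units to fatty acids, had 6.35 to 8.42 FPKM in PAKG and 6.73 to 8.86 FPKM in OC (log2 fold change -0.07, 95% interval -0.41 to 0.28), and 47.4% of its transcript windows occur in Gm5182. Lpin1, a phosphatidate phosphatase, was low at 1.46 to 2.00 FPKM over both groups (log2 fold change -0.06, 95% interval -0.40 to 0.28). None of the 3 was called with the block either, and the width of these intervals leaves room for changes in either direction.

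The desaturases Scd1 and Scd2, which put the double bond into stearate, differed strongly in level but neither was called. Scd2 was the member with the highest level, at 344.45, 419.25 and 368.25 FPKM in PAKG and at 347.31, 397.92 and 351.37 FPKM in OC (log2 fold change 0.04, 95% interval -0.19 to 0.28). Scd1 was at 50.36, 66.70 and 55.75 FPKM in PAKG and at 60.61, 65.26 and 62.55 FPKM in OC (log2 fold change -0.13, 95% interval -0.38 to 0.11). Within each library Scd2 exceeded Scd1 by 6.29 to 6.84 times in PAKG and by 5.62 to 6.10 times in OC. These ratios did not overlap between the groups, but with 3 against 3 an exact permutation test cannot go below p = 0.1. How often the ratios of other gene pairs lie apart was not computed. Of Scd1 windows 3.2% and of Scd2 windows 1.8% occur in other genes.

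None of the 5 regulators was called without the block. Srebf2 was at 44.01, 49.35 and 45.85 FPKM in PAKG and at 49.25, 50.49 and 45.38 FPKM in OC (log2 fold change -0.06, 95% interval -0.24 to 0.12). Srebf1 was lower in level, at 9.08, 9.02 and 8.88 FPKM in PAKG and at 8.94, 8.38 and 7.69 FPKM in OC (log2 fold change 0.11, 95% interval -0.07 to 0.29). Scap had 8.29 to 9.54 FPKM in PAKG and 8.03 to 8.51 FPKM in OC (log2 fold change 0.08, 95% interval -0.10 to 0.27). The messages of the 2 factors and of their escort thus overlapped between groups, and the values do not measure the cleaved factors. Insig1, which anchors Scap and is itself an SREBP target, was at 78.56, 81.27 and 83.53 FPKM in PAKG and at 86.96, 95.42 and 90.81 FPKM in OC, without overlap (log2 fold change -0.17, limma adjusted p = 0.154, and 0.0429 with the block). Insig2, its relative, had 10.72 to 11.80 FPKM in PAKG and 10.99 to 12.32 FPKM in OC (log2 fold change -0.07, 95% interval -0.24 to 0.11). Within each library Srebf2 exceeded Srebf1 by 4.85 to 5.47 times in PAKG and by 5.51 to 6.03 times in OC. Those ratios did not overlap, while Insig1 over Insig2 did (6.89 to 7.79 in PAKG, 7.25 to 8.68 in OC). Differences in these ratios were not tested.

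Among the transport genes Mylip rose. Mylip, a ubiquitin ligase that sends lipoprotein receptors to degradation and is a target of LXR (ENSMUSG00000038175, chromosome 13, 45389742 to 45412022), was at 10.16, 11.92 and 11.27 FPKM in PAKG and at 7.12, 7.94 and 7.45 FPKM in OC. All PAKG libraries lay above all OC libraries (means 11.1 ± 0.890 and 7.50 ± 0.413 FPKM, SD, n = 3; log2 fold change 0.56 ± 0.09 SE, limma adjusted p = 0.00544). Mylip was called in all 15 alternative fits (adjusted p = 0.00152 to 0.0337). Stard4, a carrier of sterol between membranes that is an SREBP target, was at 20.64, 25.21 and 21.72 FPKM in PAKG and at 25.45, 31.85 and 27.67 FPKM in OC. Its groups did not overlap (log2 fold change -0.33, adjusted p = 0.091, and 0.00455 with the block). Abca1, the exporter of cholesterol that LXR switches on, was listed at 0.21, 0.29 and 0.17 FPKM in PAKG and at 0.15, 0.27 and 0.16 FPKM in OC, an estimated 50 to 107 fragments per library. The groups overlapped, and no difference in Abca1 was detectable at this level.

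**Figure D3:**
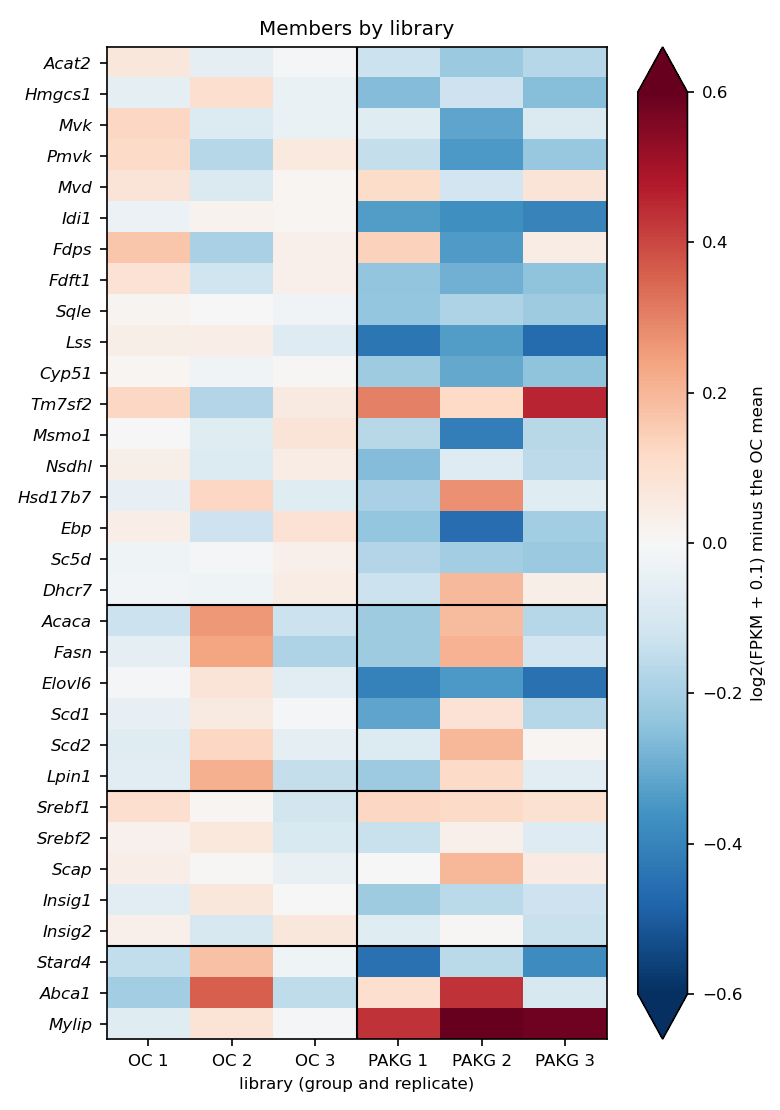
Each of the 32 members (rows, in pathway order; lines divide sterol enzymes, fatty acid enzymes, regulators and transport genes) in each library (columns), as log2(FPKM + 0.1) minus the mean of the 3 OC libraries. Blue is lower and red is higher than the OC mean. Most sterol rows are blue in all 3 PAKG columns, and the fatty acid rows other than Elovl6 are red in replicate 2 of both groups.

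Replicate 2 of both groups stood apart, and the branches did so in different ways. All 6 fatty acid enzymes were highest in replicate 2 in PAKG and in OC, as were 27.5% of all genes tested. Of the 18 sterol enzymes 10 were lowest in replicate 2 of both groups, as were 31% of all genes, and 3 (Hmgcs1, Lss and Hsd17b7) were highest. For Acaca the step from the mean of replicates 1 and 3 to replicate 2 was 0.38 in PAKG and 0.39 in OC on the log2 scale, and for Fasn 0.37 and 0.36. For Fdps it was -0.43 and -0.29. These steps were larger than the difference between PAKG and OC in the same 3 genes. What the replicate number marks is not given in the sources used here. Members with little spread were Sqle, with a coefficient of variation of 1.76% in PAKG and 1.27% in OC, and Sc5d with 1.64 and 2.02%.

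Related genes of the pathway were read from 5 lists of 64 genes, of which 54 were tested. Among them 7 were called lower (13%, against 8.73% of all genes) and 4 higher (7.41%, against 5.97%). Their median log2 fold change was -0.03, equal to that of all genes. The 17 tested genes that supply acetyl units and handle fatty acids held 4 called lower (23.5%, against 8.73% of all genes) and 1 higher (5.88%, against 5.97%). Acsl3, an acyl-CoA synthetase of lipid droplets, was at 28.45, 26.95 and 27.65 FPKM in PAKG and at 36.31, 38.59 and 36.81 FPKM in OC (log2 fold change -0.43, limma adjusted p = 0.00475). Acss2 and Aacs, which activate acetate and acetoacetate, had log2 fold changes of -0.30 (adjusted p = 0.0275) and -0.27 (0.0298), and Acsl4, another acyl-CoA synthetase, -0.37 (0.0392). These 3 were named after their values were seen. Me1, the malic enzyme that makes NADPH, rose, from 41.73 to 43.34 FPKM in OC to 59.15 to 63.28 FPKM in PAKG (log2 fold change 0.51, adjusted p = 0.00209).

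In the other related lists the share called was 11.1% for isoprenoids and for SREBP processing, 15.4% for sterol handling and 33.3% for LXR, against 14.7% of all genes. Of 9 genes on the side branches to isoprenoids, Pdss1, which makes the tail of ubiquinone, fell to a mean of 2.68 ± 0.325 FPKM from 4.0 ± 0.41 in OC (SD, n = 3, log2 fold change -0.56, limma adjusted p = 0.0216). Of 9 genes of SREBP processing and turnover, the ubiquitin ligase Rnf139 fell (log2 fold change -0.36, adjusted p = 0.0352). With the block 3 of these 9 were called lower (33.3%, against 17.1% of all genes) and 2 higher (22.2%, against 12.3%). Of 6 tested genes listed for LXR, which include receptor genes, 2 were called, both higher (33.3%, against 5.97% of all genes). Not called were Rxra, Rxrb and Lpcat3 (log2 fold changes 0.09, 0.15 and -0.02) and Nr1h2. Smpdl3a, a phosphodiesterase, was at 1.31, 1.54 and 1.63 FPKM in PAKG and at 0.73, 0.52 and 0.63 FPKM in OC (log2 fold change 1.14, adjusted p = 0.00513), the only related gene among the 54 tested to be called at a fold change of at least 2. Arl4c, a small GTPase, had 6.13 to 6.50 FPKM in PAKG and 4.19 to 4.53 FPKM in OC (log2 fold change 0.53, adjusted p = 0.0036). Nr1h3, which encodes LXR alpha, was listed at 0.03 to 0.10 FPKM and not tested. Nr1h2, which encodes LXR beta, was at 14.21 to 17.29 FPKM over both groups (log2 fold change 0.09, adjusted p = 0.499). Of 13 genes of sterol handling, Lrp8, a lipoprotein receptor, fell to 1.47 ± 0.307 FPKM from 2.5 ± 0.266 in OC (log2 fold change -0.74, adjusted p = 0.0221). Npc2, which carries cholesterol out of the lysosome, rose to 39.2 ± 4.34 FPKM from 30.3 ± 2.04 in OC (log2 fold change 0.37, adjusted p = 0.0471). Ch25h, which makes an oxysterol and was below the filter, was at 0.17, 0.15 and 0.25 FPKM in PAKG and at 0.88, 0.80 and 0.71 FPKM in OC, without overlap, and with no filter it was called lower (log2 fold change -1.64, adjusted p = 0.0119). It was named after its values were seen. Me1, Acsl3, Smpdl3a and Arl4c were called in all 15 alternative fits. The calls of Pdss1, Acss2, Aacs, Acsl4, Rnf139, Lrp8 and Npc2 were lost in 4 to 9 of them, each of them without PAKG replicate 3 (adjusted p = 0.0778 to 0.168), without OC replicate 1 (0.0661 to 0.114) and without OC replicate 3 (0.0556 to 0.125).

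**Figure D4:**
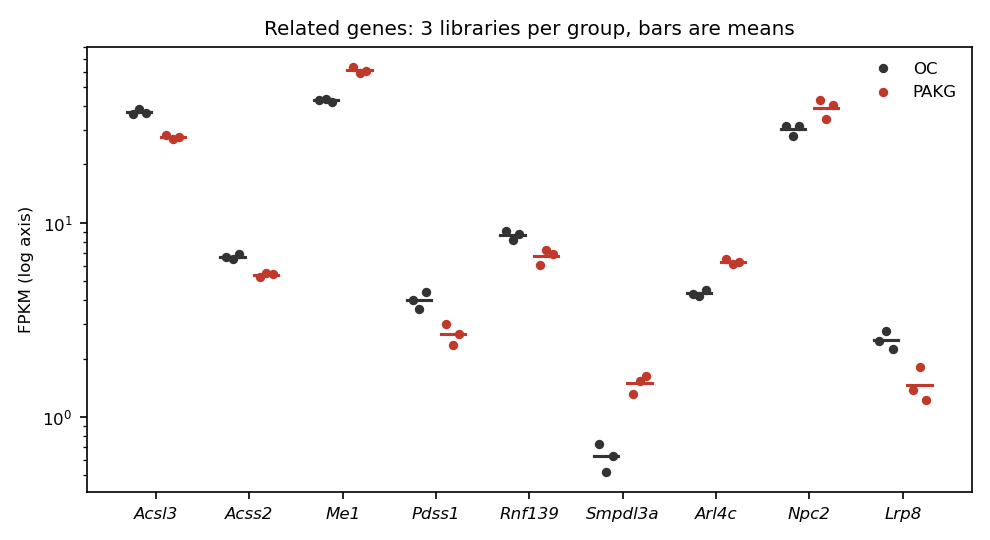
FPKM on a log axis of 9 related genes in each library of OC and PAKG, with bars at the means. Acsl3, Acss2, Pdss1, Rnf139 and Lrp8 are lower in PAKG, and Me1, Smpdl3a, Arl4c and Npc2 are higher, with no overlap of the groups.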

How the data were processed

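FPKM values, rounded to 2 decimals, were deposited by the authors for each library. HISAT2, StringTie, cutadapt, FastQC and DESeq2, with GRCm38, are named by the submitters' processing notes, and the annotation release is not given in the sources used here. No count model was applied to these FPKM. Values were taken as log2(FPKM + 0.1), genes whose mean over all libraries was under 0.5 FPKM were dropped, and limma 3.58.1 (R 4.3.3, eBayes with trend) compared all 12590 genes, with prior degrees of freedom of 3.54 beside 4 residual ones. Deviations from the group means of same-numbered samples correlated at 0.192 to 0.43 in the 3 pairs, all above 0.1, and at -0.312 to 0.138 otherwise, so the replicate number was also fitted as a block. The members and lists were chosen with earlier results of these data known. The named genes are all members and, per related list, genes past both thresholds and up to 2 with the smallest adjusted p under 0.05. Acss2, Aacs, Acsl4, Ch25h, Nr1h3, Nr1h2, Rxra, Rxrb and Lpcat3 were named outside this rule, after their values were seen. Gene positions came from GENCODE M21, which holds 99.76% of the gene IDs, and transcript windows of 75 bases were matched to its other transcripts. Depth was estimated from single-transcript genes of 200 to 500 bases, from the FPKM value that 1 fragment on 1 kb is worth. The fit was tried on simulated data, with noise independent between libraries and planted changes larger than those of the members called lower. It had no shared deviation by replicate number, so it does not test how the fit behaves under that. Python 3.11.15, pandas 2.3.3 and matplotlib 3.10.9 made the tables and figures. A planned comparison of protein sequences was not run, and Abcg1, Adgre1, Kdr, Tek and Emcn were not analysed here.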

Additional observations from a re-analysis of the deposited data

How the results depend on the processing

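The 15 alternatives were other pseudocounts and filters, 2 scalings, no mean-variance trend, the replicate block, each library left out, and replicate 2 of both groups left out. No tested member whose main or alternative value was called changed direction. With the replicate block (paired fit) 3711 genes were called in place of 1850, with 16 in place of 5 members and 12 in place of 3 sterol enzymes. Leaving out replicate 2 of both groups gave 2751 genes, 12 members and 9 sterol enzymes. Leaving out 1 library at a time gave 831 to 2227 genes, 1 to 6 members, 0 to 3 sterol enzymes and 0 to 1 fatty acid enzymes, each time lowest without PAKG replicate 3, without which Mylip alone was called. The fatty acid median ran from -0.18 to 0.06 in these fits. A pseudocount of 1 left 90 in place of 182 genes at both thresholds. Rescaling to a common total moved the sterol median from -0.21 to -0.16, and under it Cyp51 lost its call (adjusted p = 0.0594) and Ebp gained one (0.0489). The Cyp51 call was also lost with no filter (0.0774) and with no trend (0.0581). The block changed no other call of a member than those given. FPKM come without the counts behind them, so counting error could not be computed, and low depth limits what can be said of Abca1 and other genes near the pseudocount of 0.1.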
